A study of Mus musculus with 26 samples.

Results

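The mRNA decay machinery comprises the enzymes and scaffolds that shorten the poly(A) tail of an mRNA, remove its cap and degrade the body of the transcript. Its genes were taken by name: subunits of the CCR4-NOT complex (Cnot), Pan2, Pan3 and Parn, the poly(A) binding protein genes Pabpc1 and Pabpc4, the decapping factors Dcp1, Dcp2, Dcps, Edc3, Edc4, Ddx6 and Patl1, Lsm1 to Lsm8, the exonucleases Xrn1 and Xrn2, the exosome (Exosc) with the Dis3 family, and the nonsense-mediated decay (NMD) factors Upf and Smg. The rule found 53 of the 10104 genes listed for either cell type. Of these, 48 were listed for both oligodendrocyte progenitor cells (OPCs) and oligodendrocytes (OLs), and 5 (Cnot4, Dcp1b, Exosc3, Upf3a and Xrn1) were listed for OLs alone. A table holds only transcripts of at least 1 FPKM at the start of the chase that were not at 0 at 1 and 2 h, and which condition kept the 5 out of the OPC table is not known. Cnot1, Exosc6, Exosc7 and Pabpc4 were not analysed here. A half-life in all 5 replicates was available for 47 members, all of the 48 but Lsm5.

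The OPCs were derived from epiblast stem cells of 129S/SvEv mice and kept in bFGF and PDGFA, and the OLs were made from them by withdrawal of these factors and addition of T3 (thyroid hormone), noggin, IGF-1, cyclic AMP and NT3. Both were given 5-ethynyluridine (5-EU), a uridine analogue that marks newly made RNA, for 24 h, and OLs received it after 40 h of differentiation. The analogue was then chased with uridine for 0, 1, 2, 4 and 6 h, and the labelled RNA was captured and sequenced in 3 OPC replicates (15 libraries) and 2 OL replicates (10 libraries). Differentiation leaves some progenitors in the OL cultures, and the background of the beads was not subtracted, since an OPC control lacking biotin was not analysed here.

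Most mRNAs lose their poly(A) tail before anything else happens to them: Pan2-Pan3 trims a long tail, and the CCR4-NOT complex removes the rest with its CCR4-type (Cnot6, Cnot6l) and CAF1-type (Cnot7, Cnot8) nucleases. The Lsm1-7 ring then binds the short tail and helps Dcp2 to remove the cap, after which Xrn1 digests the body from the 5′ end, while the exosome works from the 3′ end. NMD is the branch that finds transcripts with a premature stop codon, through the helicase Upf1 and its partners.

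The values are FPKM, fragments scaled to the length of the transcript and the size of the library, so that levels can be compared between genes. The methods describe scaling to labelled spike-in RNA for every chase time, 0 h included. Of the 0 h values 96.4% were written with more than 6 significant digits and of the later values 0%, so the 0 h columns were written differently, and whether they were scaled in the same way is unknown. The levels at 0 h are compared here as deposited. Over the listed transcripts the FPKM of a 0 h library summed to between 342224 and 432287, and the number of reads is unknown. At 6 h between 14.4% and 20.3% of the transcripts shared by the cell types were listed at 0 in an OPC library, beside 1.96% and 0.318% in the OL libraries. All 14 of the oligodendrocyte markers were listed for OLs and 6 for OPCs, and the 6 were called higher in OLs. Of 7 markers of dividing cells listed for both, 5 were called lower in OLs, and their summed level ran from 594 to 668 FPKM in OPCs and from 91.9 to 188 FPKM in OLs. Of the 10 OPC markers 4 were called higher and 2 lower. Of 8 astrocyte markers 5 were listed for both cell types (464 to 579 FPKM in OPCs and 418 to 723 FPKM in OLs), 1 called higher in OLs and 0 lower. Gfap and Aldh1l1 were listed for OLs alone. Gja1 had 187.5 FPKM in OL replicate 2, beside 35.8 to 42.0 FPKM in every other 0 h library. No microglial marker was listed.

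The decay genes were expressed at middling levels. In OPCs the mean FPKM at 0 h had a median of 22.1 over the 48 members, beside 18.4 over all OPC transcripts, and ran from 4.15 for Upf3b to 94.1 for Lsm4. In OLs it had a median of 16.4 over 53 members, beside 16.3 over all, and ran from 3.67 for Dcp1b to 69.8 for Ddx6. The highest member was thus an Lsm gene in OPCs, and in OLs it was Ddx6, the helicase that joins translational repression to decapping.

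**Figure D1:**
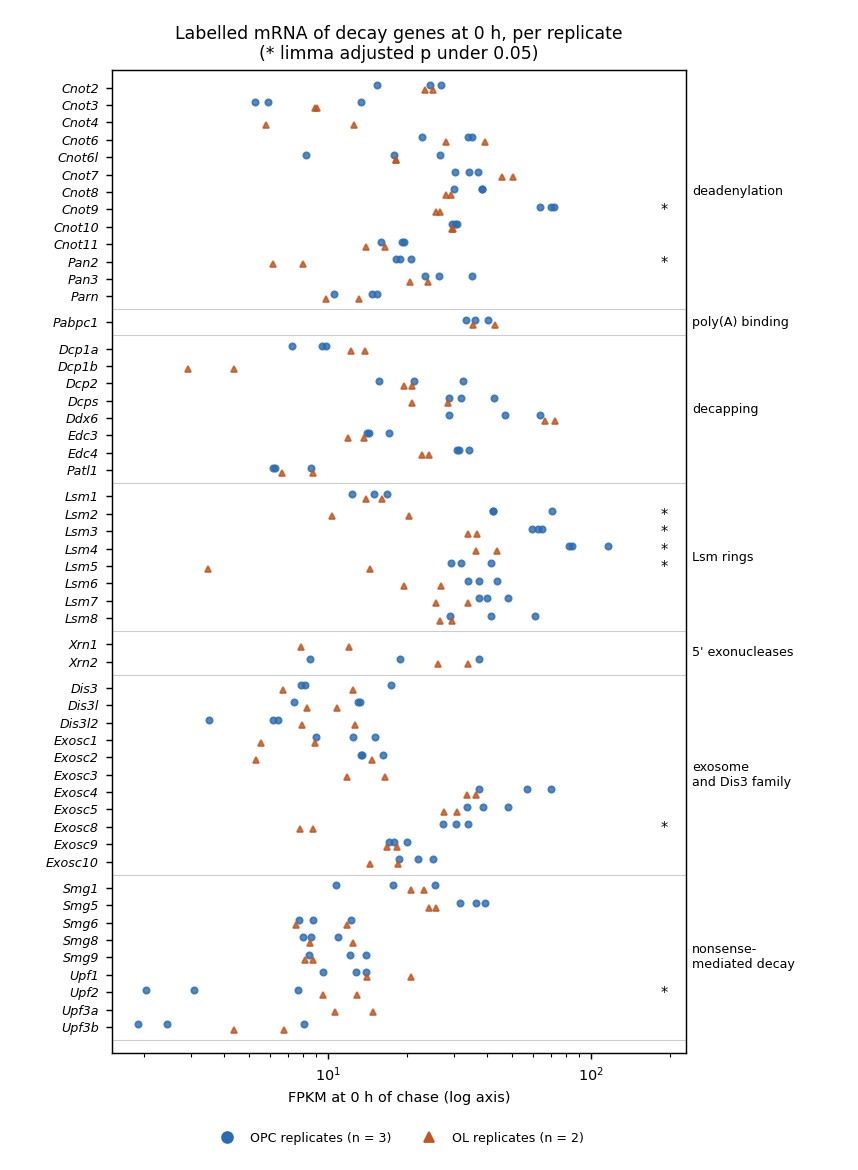
Each row is a member (1 is not shown) and each point is 1 replicate, with FPKM at 0 h on a log axis, OPC replicates as circles and OL replicates as triangles, grouped by role. Asterisks mark the 8 members with a limma adjusted p under 0.05, of which Upf2 alone was higher in OLs, and rows with triangles alone are the 5 members listed for OLs alone.

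The question at 0 h was which decay genes carried more or less labelled mRNA after differentiation. Since 5-EU was supplied for 24 h, this level depends on synthesis and on decay together, and in bulk samples fewer expressing cells and less RNA per cell cannot be told apart. With limma on log2(FPKM + 1), adjusted by Benjamini-Hochberg over all 8177 shared transcripts, 8 of 48 members were called at an adjusted p under 0.05, 7 lower and 1 higher in OLs. Among all shared transcripts 29.6% were called, 15.8% lower and 13.8% higher, and whether the members differ from this share was not tested. The 7 that fell were Lsm2, Lsm3, Lsm4, Lsm5, Exosc8, Cnot9 and Pan2, and the 1 that rose was Upf2. The median difference was -0.20 on the log2 scale over the 48 members and -0.01 over all transcripts. All replicates of OLs lay below all replicates of OPCs for 18 members and above them for 6, where 31.4% and 28% of all transcripts did so. Without OL replicate 1 the number called was 5 (11.0% of all transcripts) and without OL replicate 2 it was 4 (14.4% of all), and Cnot9, Exosc8 and Pan2 were called in both of these fits. With every library set to the same sum, the split became 6 lower and 4 higher, beside 30.3% of all transcripts called, with Cnot7, Dcp1a and Dis3l2 added to Upf2 and with Lsm3 lost.

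**Figure D2:**
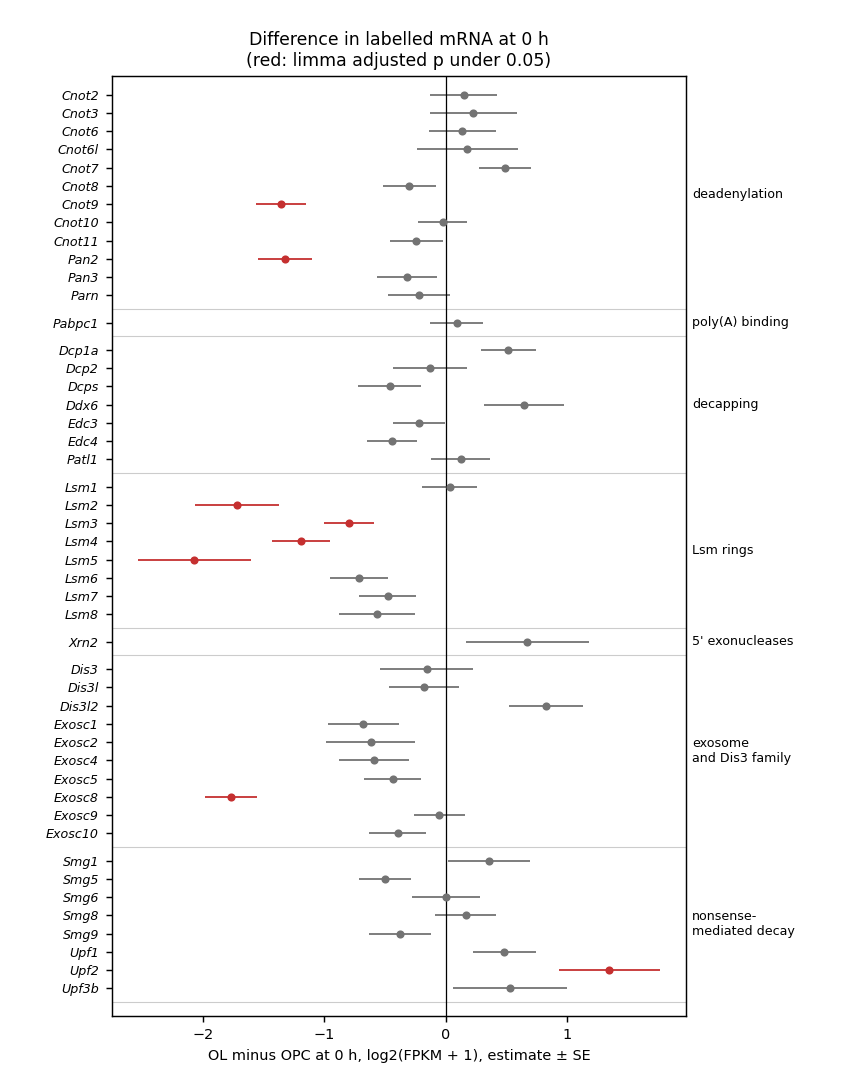
Points give the limma estimate of OL minus OPC at 0 h in log2(FPKM + 1) and bars its SE for the members listed for both cell types, all but 1 of which are shown (3 OPC and 2 OL replicates). The 4 called Lsm genes, Exosc8, Cnot9 and Pan2 lie left of 0, and Upf2 lies to the right.

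The Lsm rings showed the most calls. Lsm2 to Lsm7 are shared by a cytoplasmic ring with Lsm1, which activates decapping, and a nuclear ring with Lsm8, which binds the U6 RNA of the spliceosome. Of the 8 genes, 4 fell and 4 did not pass the test. Lsm4 was the highest of them. OPC replicates 1, 2 and 3 had 116, 84.6 and 82.3 FPKM of it, and OL replicates 1 and 2 had 43.97 and 36.6 FPKM. The groups lay well apart, and the difference was -1.19 (SE 0.24, limma adjusted p = 0.0093). Lsm2 had 42.4, 70.8 and 42.3 FPKM in OPCs and 10.4 and 20.2 FPKM in OLs, a difference of -1.72 (SE 0.35, limma adjusted p = 0.0089). Both groups were spread widely in Lsm2, and they did not overlap. Lsm3 had 64.9, 59.4 and 62.7 FPKM in OPCs and 36.7 and 34.1 FPKM in OLs, a difference of -0.80 (SE 0.20, limma adjusted p = 0.022). Lsm5 had 41.4, 32.0 and 29.3 FPKM in OPCs and 14.4 and 3.48 FPKM in OLs, a difference of -2.07 (SE 0.47, limma adjusted p = 0.014). All its OL values lay below the OPC values, but the OL replicates were far apart, and the SE is the highest of the 8 called members. The difference was -1.18 without OL replicate 2 and -2.96 without OL replicate 1, and Lsm5 in OL replicate 2 stood at 311% to 542% of this 0 h value later in the chase.

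Lsm6 missed the threshold (-0.71, SE 0.24, limma adjusted p = 0.057), as did Lsm7 (-0.48, adjusted p = 0.16) and Lsm8 (-0.57, adjusted p = 0.20). Lsm6 was called with a pseudocount of 5 and without OPC replicate 1. Lsm6 and Lsm7 were lower in each OL replicate than in any OPC replicate, while Lsm8 overlapped. Lsm1, which sets the cytoplasmic ring apart, had 16.7, 14.97 and 12.3 FPKM in OPCs and 13.9 and 16.0 FPKM in OLs, a difference of 0.03 (SE 0.23, limma adjusted p = 0.93). Its level lay within the same range in either cell type, and below that of Lsm8 in every replicate. The log2 ratio of Lsm1 to Lsm8 averaged -1.47 ± 0.43 in the 3 OPC and -0.87 ± 0.04 in the 2 OL replicates (mean ± SD), without overlap (exact two-sided permutation p = 0.20). With 3 replicates against 2 this test cannot give a p under 0.1.

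The calls on the Lsm genes did not all hold with 1 replicate left out, while the differences of Lsm3 and Lsm4 changed little. Lsm3 lost its call without OPC replicate 3 (-0.79, limma adjusted p = 0.094), where 15.4% of all transcripts were called. Without OL replicate 1 Lsm2, Lsm3 and Lsm4 lost their calls, with differences of -1.27, -0.85 and -1.32. Without OL replicate 2 Lsm3, Lsm4 and Lsm5 did, with differences of -0.75, -1.06 and -1.18. Fewer of all transcripts were called in these fits as well, as given above. Each kept its direction in all of these fits. Lsm genes are short, and their transcripts have a median of 824 bases over the 8, beside 3099 bases over all listed transcripts. Of the Lsm3 exons, 23.4% of bases are also annotated to another gene on the same strand, so its FPKM may hold reads of that gene. The markers of dividing cells moved in the same direction as the Lsm genes, as given above, and their part in these differences was not tested.

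The Lsm2 transcript lies at chr17:34981880-34985891 on the plus strand with 5 exons, Lsm3 at chr6:91515928-91522625 on the plus strand with 4, Lsm4 at chr8:70673248-70678752 on the plus strand with 5, and Lsm5 at chr6:56701063-56704692 on the minus strand with 5 (GRCm38, GENCODE M21). Since these 4 fell together, the 200 bases before the RefSeq start of transcription (GRCm38.p6) are shown for the 3 of them with a listed promoter, read 5′ to 3′ along the strand of the gene. Capitals mark the CCAAT box (CCAAT or ATTGG) and the GC box (GGGCGG or CCGCCC).
Lsm2, chr17:34981654-34981853, plus strand: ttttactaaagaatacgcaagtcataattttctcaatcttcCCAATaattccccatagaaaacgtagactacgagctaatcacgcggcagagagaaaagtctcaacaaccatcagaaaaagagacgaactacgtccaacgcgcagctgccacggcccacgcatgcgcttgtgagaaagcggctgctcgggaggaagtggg
Lsm3, chr6:91515835-91516034, plus strand: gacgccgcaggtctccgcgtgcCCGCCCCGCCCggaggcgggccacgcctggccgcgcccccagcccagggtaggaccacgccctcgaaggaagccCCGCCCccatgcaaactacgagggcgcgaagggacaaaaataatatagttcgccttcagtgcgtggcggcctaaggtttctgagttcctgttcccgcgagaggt
Lsm5, chr6:56704700-56704899, minus strand: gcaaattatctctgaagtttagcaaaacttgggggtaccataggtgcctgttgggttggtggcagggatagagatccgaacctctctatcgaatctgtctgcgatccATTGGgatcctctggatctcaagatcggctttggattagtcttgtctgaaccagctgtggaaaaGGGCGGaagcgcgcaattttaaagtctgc
Lsm2 and Lsm5 hold a CCAAT box, as do 29.3% of the 32851 listed promoters in these 200 bases, and Lsm3 and Lsm5 hold a GC box, as do 31% of them. Neither element was shared by the 3. Over the 7 called members with a listed promoter the CCAAT box was in 3 and the GC box in 5. The E-box CACGTG, the ETS motif CCGGAAG, the CRE and E2F motifs and the NRF-1 palindrome were searched on both strands as well, and each was in 0 of the 7, beside 5.26%, 6.29%, 1.47%, 0.216% and 0.728% of all promoters. The start used for Lsm3 lies 107 bases from that of its GENCODE transcript, and for Lsm2 and Lsm5 the distance is 26 and 7 bases.

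In the deadenylation group, 2 of 12 genes fell and 10 did not pass the test. Cnot9, a subunit of CCR4-NOT that binds silencing factors, had 70.0, 63.6 and 71.9 FPKM in OPCs and 25.6 and 26.7 FPKM in OLs. The difference of -1.35 (SE 0.21, limma adjusted p = 0.0027) came with tight replicates on either side. Pan2, the nuclease of Pan2-Pan3, had 20.7, 18.7 and 18.1 FPKM in OPCs and 6.16 and 8.003 FPKM in OLs, a difference of -1.33 (SE 0.22, limma adjusted p = 0.0039). Its partner Pan3 had 23.3, 35.1 and 26.5 FPKM in OPCs and 20.5 and 23.9 FPKM in OLs, with overlap (-0.32, SE 0.25, limma adjusted p = 0.35). Cnot9 and Pan2 kept their call under each alternative tried at 0 h, including every left-out replicate.

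The nucleases of CCR4-NOT did not pass the test. Cnot7 had 30.4, 34.3 and 37.2 FPKM in OPCs and 50.5 and 45.6 FPKM in OLs (0.49, SE 0.21, limma adjusted p = 0.12), the highest difference of the group. Cnot8, which can take its place in the complex, had 38.6, 30.2 and 38.4 FPKM in OPCs and 28.1 and 29.2 FPKM in OLs (-0.30, SE 0.22, adjusted p = 0.33). The log2 ratio of Cnot7 to Cnot8 averaged -0.07 ± 0.26 over the 3 OPC and 0.73 ± 0.14 over the 2 OL replicates (mean ± SD), so that Cnot7 was the more abundant in OLs and about level with Cnot8 in OPCs. The groups did not overlap (exact two-sided permutation p = 0.10, the smallest this design can give, and 0.23 after Benjamini-Hochberg over the 7 pairs of genes compared). The ratio of Cnot6 to Cnot6l was alike in range, with a difference of -0.04 that turned positive when OPC replicate 1 (0.20) or OL replicate 1 (0.20) was left out. Parn, a deadenylase of its own, had 14.7, 15.4 and 10.55 FPKM in OPCs and 13.05 and 9.84 FPKM in OLs, and the log2 ratio of Pan2 to Parn averaged 0.49 ± 0.23 in OPCs and -0.62 ± 0.50 in OLs without overlap (exact two-sided permutation p = 0.10). In the scaffold and its modules, Cnot2, Cnot3, Cnot10 and Cnot11 differed by between -0.24 and 0.23, and Cnot10 was near constant, from 29.6 to 30.8 FPKM over the 5 replicates. Cnot4 had 5.81 and 12.5 FPKM in OLs.

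None of the 7 decapping genes listed for both cell types was called at 0 h. Dcp2, the enzyme itself, had 15.6, 32.4 and 21.1 FPKM in OPCs and 20.9 and 19.4 FPKM in OLs (-0.13, SE 0.31, limma adjusted p = 0.78). Ddx6 had 28.7, 64.1 and 47.1 FPKM in OPCs and 66.8 and 72.9 FPKM in OLs, the highest difference of the group (0.64, SE 0.33, adjusted p = 0.17). The lowest was that of Dcps, which clears the cap left over from 3′ decay, with 42.5, 32.1 and 28.7 FPKM in OPCs and 28.4 and 20.9 FPKM in OLs (-0.46, SE 0.26, adjusted p = 0.21). The OL values of Ddx6 lay above and those of Dcps below all OPC values, by less than the spread of the OPC replicates. Dcp1a, a cofactor of Dcp2, had 8.84 ± 1.37 (SD, n = 3) FPKM for OPCs and 13.01 ± 1.18 (SD, n = 2) for OLs (0.52, adjusted p = 0.12), while Edc4, the scaffold that holds Dcp1 and Dcp2 together, had 32.2 ± 1.78 and 23.4 ± 1.008 FPKM (-0.44, adjusted p = 0.14). Edc3, another activator of Dcp2, differed by -0.22 (limma adjusted p = 0.46) and the scaffold Patl1 by 0.12 (0.73). Dcp1b had 4.40 and 2.94 FPKM in OLs.

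The 5′ exonucleases gave no call. Xrn2, which works in the nucleus, had 8.56, 37.6 and 18.8 FPKM in OPCs and 26.2 and 34.1 FPKM in OLs (0.67, SE 0.51, limma adjusted p = 0.34), and the OPC replicates alone spanned a wider range than both OL values. Xrn1, its cytoplasmic counterpart, had 7.89 and 11.95 FPKM in OLs. Pabpc1, which coats the poly(A) tail, had 40.5, 36.3 and 33.35 FPKM in OPCs and 42.9 and 35.4 FPKM in OLs (0.09, SE 0.22, adjusted p = 0.78).

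In the exosome and Dis3 family, 1 of 10 genes fell and 9 did not pass the test. Exosc8, a subunit of the ring through which RNA is threaded, had 27.2, 30.7 and 33.99 FPKM in OPCs and 7.81 and 8.73 FPKM in OLs, a difference of -1.77 (SE 0.22, limma adjusted p = 0.00096). This was the firmest change among the members and held under each alternative tried at 0 h. The other ring and cap subunits that were not called, Exosc1, Exosc2, Exosc4, Exosc5 and Exosc9, had differences from -0.68 to -0.05. Exosc1 came nearest (adjusted p = 0.11), and it was called on quantile normalisation and without OPC replicate 1. Exosc4 was called without OPC replicate 2, and Exosc2 without OL replicate 1, a fit that holds 1 OL sample. The nuclear nuclease Exosc10 had 21.99, 25.04 and 18.55 FPKM in OPCs and 18.4 and 14.4 FPKM in OLs (-0.40, SE 0.23, adjusted p = 0.23). Exosc3 had 11.7 and 16.5 FPKM in OLs.

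None of the catalytic Dis3 genes was called. Dis3 had 7.86, 17.3 and 8.16 FPKM in OPCs and 6.76 and 12.5 FPKM in OLs, and Dis3l, the cytoplasmic form, had 7.44, 13.03 and 13.2 FPKM in OPCs and 10.8 and 8.33 FPKM in OLs (limma adjusted p = 0.78 and 0.67). Dis3l2, which degrades uridylated RNA without the exosome, had 3.51, 6.46 and 6.18 FPKM in OPCs and 12.6 and 7.925 FPKM in OLs (0.82, SE 0.31, adjusted p = 0.076). Its OL values lay above all OPC values. The log2 ratio of Dis3 to Dis3l2 averaged 0.87 ± 0.48 in the 3 OPC and -0.11 ± 0.99 in the 2 OL replicates (mean ± SD), with overlap (exact two-sided permutation p = 0.30), and that of Dis3 to Dis3l differed by 0.02 (exact two-sided permutation p = 0.90), a value that turned negative without OPC replicate 3 (-0.26) or OL replicate 2 (-0.55).

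Among the 9 NMD genes listed for both cell types, 1 rose and 8 did not pass the test. Upf2, which bridges Upf1 to the exon junction complex, had 2.02, 7.65 and 3.09 FPKM in OPCs and 9.51 and 12.9 FPKM in OLs, a difference of 1.35 (SE 0.42, limma adjusted p = 0.044). This call was lost without OPC replicate 1 (difference 1.02, limma adjusted p = 0.053) or OPC replicate 3 (1.24, 0.12), and with a pseudocount of 0.1 (1.58, 0.059). It was also lost without OL replicate 1 (1.55) or OL replicate 2 (1.15), and the direction was kept throughout. Upf1 had 12.8, 9.555 and 13.9 FPKM in OPCs and 14.1 and 20.7 FPKM in OLs (0.48, SE 0.26, adjusted p = 0.20). Smg5, an adaptor that joins phosphorylated Upf1 to decay enzymes, had 31.6, 36.5 and 39.5 FPKM in OPCs and 25.75 and 24.1 FPKM in OLs, the lowest difference of the group (-0.50, SE 0.21, adjusted p = 0.11). The kinase Smg1 and the endonuclease Smg6 differed by 0.35 and 0.00 (adjusted p = 0.45 and 1.00). Smg8 and Smg9 differed by 0.16 and -0.38 and Upf3b by 0.53 (limma adjusted p = 0.64, 0.29 and 0.42), and Upf3a had 10.6 and 14.8 FPKM in OLs.

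During the chase nearly all of these mRNAs fell. With limma on log2(FPKM + 1) and chase time as a slope, 43 of 48 members fell in OPCs, beside 81.7% of all OPC transcripts, and 44 of 53 fell in OLs, beside 68.4% of all OL transcripts. None of the 53 rose in OLs, where 1.5% of all transcripts did. The median slope over members was -0.51 per h in OPCs and -0.27 per h in OLs, and over all transcripts -0.38 and -0.20 per h. All 12 deadenylation genes, all 7 decapping genes and all 9 NMD genes fell in OPCs. The 5 that did not fall there were Pabpc1, Exosc5, Lsm4, Lsm6 and Lsm7, of which Lsm4 rose (0.13 per h, SE 0.04, limma adjusted p = 0.0047), as did 4.31% of all OPC transcripts. In OLs the same 5 and Cnot3, Dcps, Exosc2 and Lsm5 did not pass the test. When each library was set to the median of its own 0 h library, which takes out the common fall, 23 of 48 fell in OPCs and 12 of 53 in OLs, beside 25.4% and 20.1% of all transcripts. These fits treat the time points of a replicate as independent libraries, so their p-values measure the scatter of libraries around the line.

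The 5 mRNAs that did not fall in OPCs differed in how much label was left at the end. At 6 h Lsm4 stood at 126%, 152% and 191% of its 0 h level in OPCs and at 157% and 83.9% in OLs, in the order of the replicate numbers. Pabpc1 stood at 81.7%, 141% and 127% in OPCs and at 111% and 211% in OLs. Exosc5 stood at 78.7%, 155% and 97.4% in OPCs and at 91.2% and 67.8% in OLs. The cell types overlapped in all 3 genes, and Lsm6 ran from 55.3% to 87.6% and Lsm7 from 37.0% to 114% over the 5 replicates. For comparison, the median over all shared transcripts at 6 h was 14.8%, 11.3% and 18.1% in OPCs and 33.0% and 39.4% in OLs, and over the 48 members it was 8.49%, 9.62% and 7.49% in OPCs and 20.0% and 32.0% in OLs.

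**Figure D3:**
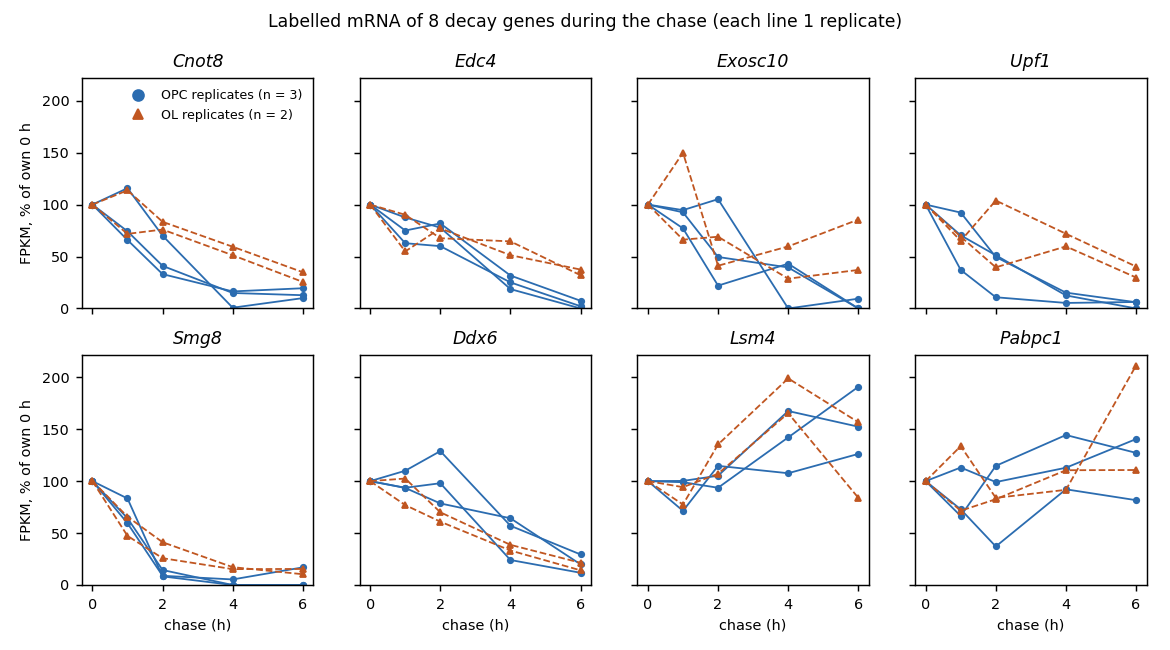
Lines join FPKM as a percentage of the replicate's own 0 h level at 0, 1, 2, 4 and 6 h of chase for 8 members, with OPC replicates solid and OL replicates dashed. Edc4 and Upf1 end below 10% in all 3 OPC replicates and above 29% in both OL replicates, while Lsm4 and Pabpc1 end at 81.7% or more in all 5 replicates.

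The next question was whether the fall differed between the cell types. In 1 model over all 25 libraries with a cell type by time term, 17 of 48 members were called on the deposited scale. All of them had a slower fall in OLs. Among all 8177 shared transcripts 32.5% were called, 32.1% with a slower and 0.391% with a faster fall in OLs, beside 35.4% of the members. With each library set to its own 0 h median 16 were called, 5 with a higher and 11 with a lower slope in OLs. Over all transcripts 10.3% and 23.8% were called in these directions. The 17 were Cnot3, Cnot7, Cnot9, Cnot10, Pan3 and Parn in deadenylation, Edc4 in decapping, Lsm8, the exosome and Dis3 family genes Exosc2, Exosc4, Exosc10, Dis3, Dis3l and Dis3l2, and the NMD factors Upf1, Smg5 and Smg9. At 6 h, 24 members kept more of their label in each OL replicate than in any OPC replicate, where 48.9% of all transcripts did so, and 1, Cnot6l, kept less, where 2.86% did so.

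Edc4 gave the lowest p. Of its 0 h level, 2.13%, 0.00% and 7.39% were left at 6 h in OPCs, and 37.4% and 32.0% in OLs. Its slope was -0.69 per h in OPCs and -0.21 per h in OLs, a difference of 0.48 (SE 0.09, limma adjusted p = 0.00069). Upf1 stood at 6.23%, 5.98% and 0.00% in OPCs and at 40.35% and 29.8% in OLs, and its slope differed by 0.36 (SE 0.08, adjusted p = 0.0031). Smg5 stood at 8.295%, 8.295% and 5.25% in OPCs and at 28.4% and 25.3% in OLs, with a difference of 0.33 (SE 0.07, adjusted p = 0.0020). In each of these the OPC and OL values were far apart at 6 h.

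Several of the highest differences came from genes listed at 0 at 6 h in OPC replicates. Lsm8 was listed at 0 at 6 h in all 3 OPC replicates and stood at 17.6% and 43.7% in OLs, and its slope of -0.83 per h in OPCs and -0.26 per h in OLs differed by 0.57 (SE 0.18, limma adjusted p = 0.017). Exosc10 stood at 0.00%, 9.41% and 0.00% in OPCs and at 37.1% and 85.6% in OLs (0.52, SE 0.15, adjusted p = 0.011), and Cnot10 at 0.00%, 0.00% and 7.58% in OPCs and at 38.2% and 42.8% in OLs (0.48, SE 0.13, adjusted p = 0.0083). At 6 h 12, 13 and 15 of the 48 members were listed at 0 in OPC replicates 1, 2 and 3 and 1 in each OL replicate, and a value of 0 can be a failed estimate as well as a loss of the mRNA.

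The other called members had differences of 0.21 to 0.41. Cnot3, a subunit of the NOT module, differed by 0.41 (limma adjusted p = 0.011), Exosc2 by 0.39 (0.025), Smg9 by 0.31 (0.0074), Dis3l by 0.30 (0.0077), Dis3l2 by 0.28 (0.0065) and Exosc4 by 0.28 (0.0035). Cnot7 differed by 0.27 (limma adjusted p = 0.0074), Pan3 by 0.26 (0.0086), Dis3 by 0.26 (0.048), Parn by 0.25 (0.039) and Cnot9 by 0.21 (0.024). At the other end, 10 members had estimates below 0, none of them called, and Cnot6 (-0.07, limma adjusted p = 0.45), Cnot6l (-0.07, 0.37), Lsm7 (-0.07, 0.55) and Exosc5 (-0.06, 0.53) were the lowest. Among the decapping genes Ddx6 (-0.02, adjusted p = 0.87) and Dcp2 (-0.02, 0.87) were the lowest, and among the NMD factors Upf3b was (0.02, 0.90). Xrn2 differed by 0.27 (adjusted p = 0.16), Lsm1 by 0.15 (0.26), Smg1 by 0.16 (0.062), Smg6 by 0.10 (0.26), Cnot8 by 0.26 (0.096) and Pan2 by 0.22 (0.056).

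How these differences read depended on the scale. An error in the spike-in factor of a library moves all of its transcripts together, and setting each library to its own 0 h median takes that error out together with any common change. On that scale 34.1% of all transcripts were called, beside 16 of 48 members. Of the 17, 5 stayed called (Cnot3, Edc4, Dis3l2, Smg9 and Upf1) and 16 kept an estimate above 0, Cnot9 being the exception (-0.05). Each of the 5 was listed at 0 at 6 h in at least 1 OPC replicate, and Dis3l2 and Smg9 in all 3. A listed 0 stays 0 when its library is rescaled. Of the 17, Cnot7, Cnot9, Exosc4, Pan3 and Smg5 had no such 0, and none of them stayed called, with estimates from -0.05 to 0.11. The part of the zeros in these calls was not tested. The 11 with a relatively lower slope in OLs were Cnot2, Cnot6, Cnot6l, Dcp2, Ddx6, Lsm2, Lsm4, Lsm6, Lsm7, Exosc5 and Pabpc1. Of these, Lsm4, Lsm6, Lsm7, Exosc5 and Pabpc1 did not pass as falling in either cell type on the deposited scale. The common fall was steeper in OPCs, so an mRNA that is flat in both takes a lower slope in OLs here. On this scale Cnot6l differed by -0.33 (limma adjusted p = 8.5e-05), Dcp2 by -0.27 (0.00044), Ddx6 by -0.27 (0.00083) and Cnot6 by -0.33 (0.00093). Without OL replicate 1 the count on the deposited scale fell from 17 to 3 (9.12% of all transcripts) and without OL replicate 2 to 6 (11.9% of all), and Edc4 was called in each of these. The size of a slope difference also moved with the pseudocount, which is 1 FPKM above. With a pseudocount of 0.1, 20 members were called (37.1% of all transcripts) and Parn was not, and the differences of Lsm8, Dis3l2 and Upf1 were 1.035, 0.73 and 0.62. With a pseudocount of 5, 12 were called (24.7% of all), Upf1 (0.14, limma adjusted p = 0.055), Cnot3, Dis3, Dis3l, Dis3l2 (0.082), Exosc2 and Parn were not, and Lsm8 differed by 0.30.

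**Figure D4:**
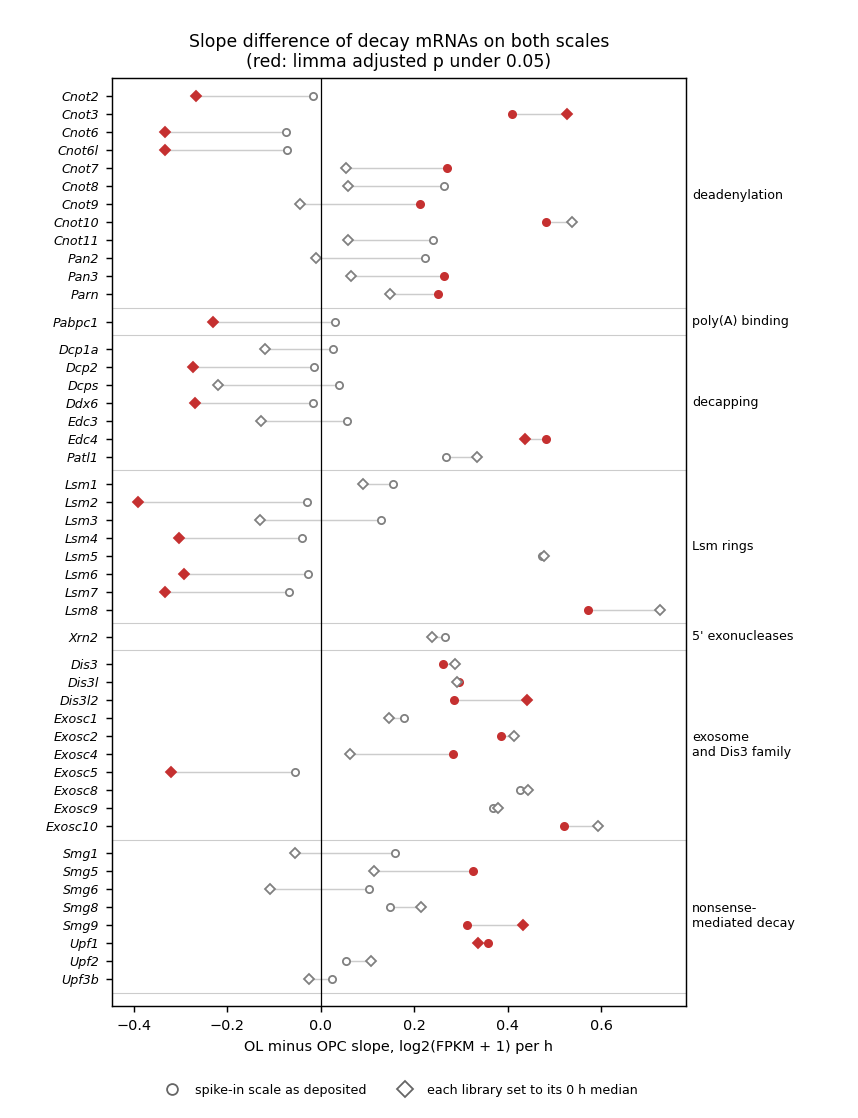
For each member listed for both cell types, all but 1 of which are shown, the circle gives the OL minus OPC slope in log2(FPKM + 1) per h on the deposited spike-in scale and the diamond the same after each library was set to its 0 h median, with filled red marks for limma adjusted p under 0.05. All 17 red circles lie right of 0, and 11 of the 16 red diamonds lie to the left.

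The deposited half-lives gave no call among the members. With limma on log2 half-life, 0 of 47 members passed after adjustment, beside 3.54% of all 8112 transcripts. Nearly all of these transcripts had a longer half-life in OLs (3.39% longer, 0.148% shorter). Before adjustment 6 of the 47 members had a p under 0.05, as did 1866 of the 8112 transcripts. Of the members, 33 had a higher and 9 a lower mean log2 half-life in OLs, and 5 were at the ceiling of 6 h throughout. The median difference was 0.36 over the members and 0.37 over all transcripts. When each replicate was centred on its own median, which moved the median of all transcripts to -0.53, the median of the members moved to -0.55, so a direction is given here only on the deposited scale and is turned for most members on the centred one (8 higher and 39 lower). The 39 include the 5 members at the ceiling throughout, each moved from no difference to -0.90 by centring alone. The deposited OL values lay above all OPC values for 15 members and below them for 1, where 35.9% and 2.01% of all transcripts did so.

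The lowest p was that of Cnot8, whose half-life was 1.53, 1.96 and 1.555 h in OPCs and 4.15 and 5.32 h in OLs, without overlap. The difference was 1.49 (SE 0.19, limma adjusted p = 0.056), and after centring it was 0.59 (adjusted p = 0.23). Edc4 had 2.00, 1.96 and 2.41 h in OPCs and 4.23 and 3.65 h in OLs (0.89, SE 0.14, adjusted p = 0.070), and after centring it was -0.01 (adjusted p = 0.98). Exosc10 had 1.86, 1.96 and 1.975 h in OPCs and 3.74 and 6.00 h in OLs (1.297, SE 0.24, adjusted p = 0.092). Smg9 had 1.96, 1.96 and 1.99 h in OPCs and 6.00 and 1.505 h in OLs. Of the members, Exosc10 was called without OL replicate 1 (limma adjusted p = 0.024) or OL replicate 2 (0.043), and Smg9 was called in the same fits with opposite signs, so that 2 members were called in each, beside 2.08% and 2.91% of all transcripts. In these fits the lone OL sample is assumed to vary as the OPC samples do. The difference of Exosc10 was -0.04 when half-lives were fitted without the 6 h libraries. Upf1 had 0.699, 1.96 and 1.96 h in OPCs and 6.00 and 3.435 h in OLs, the highest difference of all members (1.71), but with an SE of 0.66 and an adjusted p of 0.26 by limma.

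At the other end, Upf3b had 1.69, 0.934 and 6.00 h in OPCs and 0.943 and 1.57 h in OLs, the lowest difference (-0.80, SE 0.98, limma adjusted p = 0.72), set apart by OPC replicate 3 alone. Cnot6l had 5.33, 2.02 and 2.70 h in OPCs and 1.93 and 1.92 h in OLs, the only member whose OL half-lives were all below the OPC ones (-0.68, SE 0.50, adjusted p = 0.54). Xrn2 had 5.62, 1.96 and 6.00 h in OPCs and 2.12 and 3.74 h in OLs (-0.52), Ddx6 5.74, 1.96 and 4.94 h and 2.515 and 2.92 h (-0.49), and Exosc8 3.70, 2.105 and 2.775 h and 3.45 and 1.21 h (-0.45). In all 3 the cell types overlapped. Dcp2 had 2.32, 1.96 and 3.06 h in OPCs and 1.82 and 2.09 h in OLs, also with overlap. For the members listed in OLs alone, Xrn1 had half-lives of 1.38 and 2.34 h in OLs, Exosc3 1.21 and 2.35 h, Dcp1b 0.617 and 2.43 h, Cnot4 1.78 and 1.39 h and Upf3a 4.74 and 3.45 h.

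**Figure D5:**
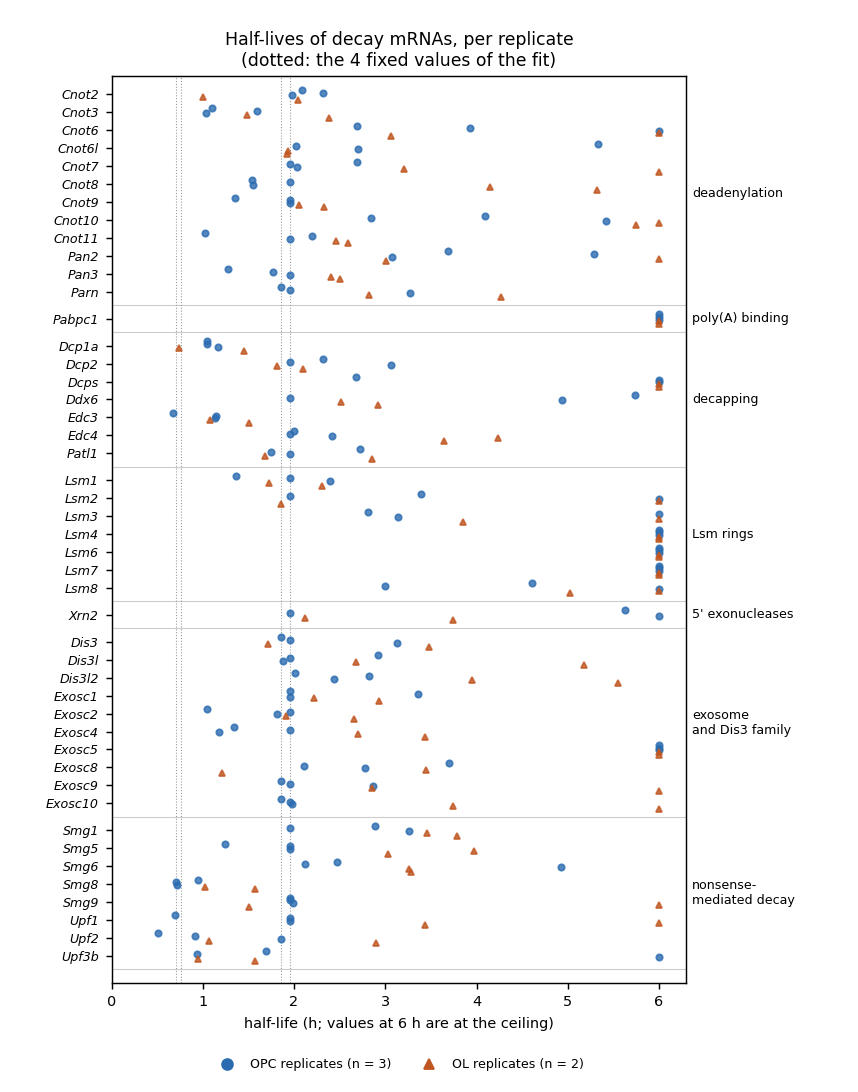
Half-lives in hours of the members with a value in all 5 replicates, all but 1 of which are shown, with OPC replicates as circles and OL replicates as triangles, and dotted lines at the 4 values to which the fit returns whatever the levels are. Circles stack on the line at 1.96 h, and Lsm4, Lsm6, Lsm7, Exosc5 and Pabpc1 sit at the ceiling of 6 h throughout.

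A recurring half-life of 1.96 h is a property of the fit. The curve was fitted by least absolute deviations, and when the levels at 1 and 2 h lie above the curve and those at 4 and 6 h below it, the summed deviation is lowest at 1.957 h whatever the levels are. Other patterns of sides give 1.858, 0.760 and 0.704 h. In OPC replicate 2, 20 of 47 members had 1.957 h, as did 25.3% of all 8112 transcripts. Counting all 4 values within 0.001 h, they held 6, 21 and 8 of the 47 members in OPC replicates 1, 2 and 3 (5.78%, 26.9% and 8.63% of all transcripts) and 0 and 1 in OL replicates 1 and 2 (0.629% and 2.02%). Of the 47 members, 26 had such a value in at least 1 OPC replicate and 9 in at least 2. Upf1, Smg5, Smg9, Cnot9 and Exosc10 are among the 9, so values set by the fit enter the spread of their OPC half-lives. With these half-lives left out, an alternative chosen after the data were seen, 0 of 47 members were called, beside 1.66% of all transcripts.

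The fit could also return a long half-life where the last value was 0. Lsm5 had 6.00 h in all 3 OPC replicates, although it was listed at 0 at 6 h in replicates 1 and 3, and Lsm8 had 4.61, 3.00 and 6.00 h with all 3 listed at 0 at 6 h. For these genes the half-life and the slope give different accounts of the same libraries.

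Ranked within a replicate, the median member stood below the median transcript. Their median percentile among the 8112 transcripts was 43.8, 38.4 and 48.0 in OPCs and 36.7 and 35.55 in OLs, and their median half-life was 2.01, 1.96 and 2.70 h in OPCs and 3.16 and 3.28 h in OLs, beside 2.35, 2.08 and 2.83 h and 4.535 and 4.44 h over all. Smg8, a regulator of the kinase Smg1, was among the shortest-lived, with 0.947, 0.704 and 0.716 h in OPCs and 1.02 and 1.57 h in OLs, a mean percentile of 3.65 and 3.75. Edc3 (0.677 to 1.504 h) and Dcp1a (0.742 to 1.45 h), which both activate Dcp2, and Cnot3 (1.04 to 2.38 h) were short-lived in all 5 replicates. The percentile lay higher in both OLs than in any OPC replicate for 5 members, Cnot8, Exosc4, Exosc10, Upf1 and Smg5, where 15.3% of all transcripts did so, and lower for 15, where 30.6% did so. The 15 include the 5 members at the ceiling throughout. All transcripts at the ceiling share 1 rank, which lies lower in OLs because more transcripts were at the ceiling there. The same holds for the 16.1% of all transcripts at the ceiling in all 5 replicates. The ceiling and the fixed values act on these ranks, and how they move with the spike-in scale was not tested.

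The members at the ceiling were short mRNAs, with the exception of Pabpc1 and Lsm6. They were 5 of 47 members, where 16.1% of all transcripts were at the ceiling in all 5 replicates. Lsm7 has 468 bases, Lsm4 925, Exosc5 1020, Lsm6 2107 and Pabpc1 2817, and the median of the 5 was 1020 bases beside 3124 bases in the other 42 members. Over all transcripts the median was 2026 bases at the ceiling and 3384 bases elsewhere. The share of G or C at the third codon position (GC3) was 78.6% in Lsm7, 76.8% in Lsm4, 68.5% in Exosc5, 61.3% in Lsm6 and 46.2% in Pabpc1. UUU made up 51.7% of the phenylalanine codons of the median member and 44.4% in the median transcript, AAA 43.8% and 37.5% of the lysine codons, and the median GC3 was 54.9% and 60.6%. Among the 7 members that fell at 0 h the share of UUU spanned the whole range, with 0.00% in Lsm3, 25% in Lsm2, 40.98% in Pan2, 50% in Lsm4, 55.6% in Exosc8, 88.9% in Cnot9 and 100% in Lsm5. These shares are descriptions of the coding sequences, and their relation to the half-lives of the members was not tested.

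Cofactors of the machinery were read from the same fits. Of 66 further names, among them partners of CCR4-NOT, the Ski and TRAMP complexes and the exon junction complex, 52 were listed for either cell type and 48 for both. The names tried for terminal uridylyltransferases, Zcchc6 and Zcchc11, were not among the 52, so these enzymes were not tested. At 0 h 3 fell and 0 rose: Khsrp, which recruits decay enzymes to AU-rich elements, from 86.1, 102 and 91.8 FPKM to 46.8 and 48.3 FPKM (-0.95, SE 0.21, limma adjusted p = 0.012), Eri1, a 3′ exonuclease of histone mRNA (-0.77, SE 0.23, 0.038), and Eif4a3, the helicase of the exon junction complex (-0.64, SE 0.20, 0.048). This is 6.25%, beside 29.6% of all transcripts, and the difference in share was not tested. The direction was not one-sided in every fit. There were 2 higher and 3 lower on quantile normalisation, 5 higher and 2 lower without OPC replicate 2, and 1 of each with the replicate block. Of all transcripts 32.6%, 31.9% and 23.6% were called in these fits. By half-life 1 of 48 was called, beside 3.54% of all transcripts. It was Gigyf1, a partner of the cap binding protein Eif4e2, with 1.28, 1.28 and 1.145 h in OPCs and 6.00 and 4.12 h in OLs (2.01, SE 0.20, adjusted p = 0.041), and after centring its difference was 1.11 (adjusted p = 0.051). By slope difference 12 of 48 were called, all with a slower fall in OLs, beside 32.5% of all transcripts. The counts of cofactors at 0 h leaned on single libraries, with 2 called without OPC replicate 1, 7 without OPC replicate 2, 0 without OPC replicate 3 or OL replicate 1, and 1 without OL replicate 2, beside 30.4%, 31.9%, 15.4%, 11.0% and 14.4% of all transcripts. Khsrp was called without OPC replicate 1 or 2 and Eri1 without OPC replicate 1, and Eif4a3 lost its call in all 5 of these fits. Gigyf1 kept its half-life call without OL replicate 2 alone, and lost it in the other 4 fits.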

How the data were processed

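Labelled RNA of OPCs and OLs was measured at 0, 1, 2, 4 and 6 h of chase. The authors aligned reads to GRCm38 with HISAT2 2.1.0 and tabulated FPKM with StringTie 1.3.5 over canonical coding transcripts (GENCODE vM9), and deposited FPKM scaled to LYSa and luciferase spike-ins. The deposited half-lives, another unit in hours, were fitted by the authors by least absolute deviations with a ceiling of 6 h. The files hold no read counts, so no counting interval was computed.

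FPKM were tested as log2(FPKM + 1) and half-lives as log2 h with limma 3.58.1 in R 4.3.3 over all transcripts, adjusted by Benjamini-Hochberg and called under 0.05. The code was tested on simulated data. Named were all called members, the extremes of each role and the main enzymes. Members, lists and tests were chosen with earlier results of these data known. P-values at 0 h and of half-lives measure the spread between 3 OPC and 2 OL replicates, and those of slopes the scatter of 15, 10 or 25 libraries, with time points of a replicate treated as independent. Replicate numbers were not taken as pairs: the study ties OLs to a pair of OPC replicates without saying which. Annotation was matched by identifier for 10104 of 10104 transcripts (GENCODE M21), 10090 with a usable coding sequence. Promoters were from RefSeq. The values of 1 member are not reported here, though it enters the counts and medians. Strandedness was not given in the sources used here.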

Additional observations from a re-analysis of the deposited data

How the results depend on the processing

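At 0 h, 8 members were called, and leaving out 1 replicate gave between 4 and 10 (11.0% to 31.9% of all transcripts). The half-life count of 0 became 1 (Cnot8) over the 28 members below the ceiling in all replicates (4.04% of all such transcripts) and between 0 and 2 with 1 replicate left out. Setting each library to its 0 h median lowered the members that fell from 43 to 23 in OPCs and from 44 to 12 in OLs, beside 25.4% and 20.1% of all transcripts. Leaving out 1 replicate gave 41 to 43 in OPCs (75.9% to 80.8% of all transcripts) and 37 to 39 in OLs (50.7% to 58.0%). The count of 17 by slope difference ran from 3 to 20 with 1 replicate left out (9.12% to 33.3% of all). The cofactors called at 0 h were 3 (29.6% of all transcripts), and 5 on quantile normalisation (2 higher, beside 32.6% of all transcripts). With 1 OPC replicate left out they were between 0 and 7 (15.4% to 31.9%). Those called by half-life were 1 (3.54% of all transcripts), 0 after centring (0.0123%) and 0 with the replicate block (0.0%). With 1 OPC replicate left out they were 0 or 1 (2.06% to 2.69%). The members' median half-life percentile, averaged over the OL replicates, moved from 36.1 to 39.0 when half-lives were refitted without 6 h. Centring turned most half-life estimates (33 above and 9 below 0 became 8 and 39). The 39 include the 5 members at the ceiling throughout, which moved from no difference to -0.90 by centring alone. The 0 h median turned some slope differences (38 and 10 became 27 and 21). Among the differences followed singly, those that turned were the half-life differences of Edc4 after centring (-0.0089) and of Exosc10 without 6 h (-0.042) and the slope difference of Cnot9 on the 0 h median (-0.045). With 1 replicate left out, the ratio of Cnot6 to Cnot6l ran from -0.31 to 0.20, Dis3 to Dis3l from -0.55 to 0.59, Cnot7 to Cnot8 from 0.66 to 0.91, Dis3 to Dis3l2 from -1.68 to -0.28, Lsm1 to Lsm8 from 0.35 to 0.75 and Pan2 to Parn from -1.46 to -0.75. The causes were not tested.

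With the replicate number as a replicate block, 7 members were called at 0 h, 0 by half-life and 17 by slope difference (23.6%, 0.0% and 33.5% of all transcripts), and 2 cofactors at 0 h. At 0 h Lsm3 was then not called (limma adjusted p = 0.093), by slope difference Exosc2 (0.063) and Parn (0.13) were not and Pan2 and Smg1 were, with 15 of the 17 shared, and of the cofactors Khsrp was called with Zcchc7 in place of Eri1 and Eif4a3. The deviations of same-numbered replicates correlated by 0.059 for number 1 and 0.010 for number 2, and 2 shared numbers are too few to show a pairing. Fits that leave out an OL replicate hold 1 OL sample, which is assumed to vary as the OPC samples do. What depth limits could not be measured, since the number of reads is unknown.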
